A study of Mus musculus with 9 samples.

Results

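The mRNA of non-stressed and socially defeated mice, both given saline, was compared gene by gene in tissue labelled as the anterior paraventricular nucleus of the thalamus. Of the 9 bulk RNA-seq libraries of the study, 6 entered the contrast. The 3 non-stressed saline libraries (NS) came from BALB/c mice without stress that were given saline. The 3 stressed saline libraries came from BALB/c mice exposed to social defeat (smSDS) for 5 days and given saline. The remaining 3 libraries, from defeated BALB/c mice given (2S,6S)-HNK, a ketamine metabolite, entered the fit to estimate the spread between libraries, and their levels are given once at the end. Of the 18956 gene symbols in the count table, 18194 passed a filter on low counts and were tested. The labels give no age and do not say whether the replicates are separate animals or pools, so every p-value measures only the spread between these libraries.

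The paraventricular thalamus is a midline nucleus of mostly glutamatergic neurons that receives peptide-rich input from hypothalamus and brainstem and is known for its part in arousal and responses to stress. Social defeat, in which a mouse is attacked by an aggressive one, is a widely used stress model. The nucleus lies under the third ventricle, lined by ciliated ependymal cells, and beside the habenula, a region with its own peptide and cholinergic neurons. Neurons of all these regions signal through peptide precursors cut by convertases, receptors coupled to G proteins, and cyclic nucleotides that phosphodiesterases break down. In bulk tissue, more cells of a type and more RNA per cell cannot be told apart.

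For 4 genes described below, the 250 bases before the gene's start are shown, taken from RefSeq on the GRCm38.p6 build and read 5′ to 3′ on the gene's strand. Dusp1, a gene lower under stress, was chosen because its letters include those of a cyclic AMP response element (CRE) and an E-box. Pcsk1 and Sstr2 are peptide-signalling genes that rose and have a CRE. Tcp11 rose and its window holds GTTGCC, an arm of the X-box that RFX factors of ciliated cells read, on each strand, but no full X-box. Capitals mark the matches.
Dusp1 (chr17:26508473-26508722, minus strand, CRE at -143 and E-box at -126): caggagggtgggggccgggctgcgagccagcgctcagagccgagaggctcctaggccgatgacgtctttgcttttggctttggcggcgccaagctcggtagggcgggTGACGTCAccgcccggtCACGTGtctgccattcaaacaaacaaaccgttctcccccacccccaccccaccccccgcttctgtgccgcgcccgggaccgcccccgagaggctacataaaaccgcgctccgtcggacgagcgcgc
Pcsk1 (chr13:75089607-75089856, plus strand, CRE at -78): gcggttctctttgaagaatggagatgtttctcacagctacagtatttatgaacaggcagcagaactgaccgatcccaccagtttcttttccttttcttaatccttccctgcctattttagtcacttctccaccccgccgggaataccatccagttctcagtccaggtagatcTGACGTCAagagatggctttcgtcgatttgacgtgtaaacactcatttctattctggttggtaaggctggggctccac
Sstr2 (chr11:113619077-113619326, plus strand, CRE at -58): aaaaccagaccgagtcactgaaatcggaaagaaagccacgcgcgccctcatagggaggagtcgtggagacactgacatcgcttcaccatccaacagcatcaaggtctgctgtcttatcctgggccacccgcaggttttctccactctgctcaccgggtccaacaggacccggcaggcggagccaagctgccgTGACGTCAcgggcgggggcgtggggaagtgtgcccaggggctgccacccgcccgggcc
Tcp11 (chr17:28080640-28080889, minus strand, X-box arms at -152 and -124): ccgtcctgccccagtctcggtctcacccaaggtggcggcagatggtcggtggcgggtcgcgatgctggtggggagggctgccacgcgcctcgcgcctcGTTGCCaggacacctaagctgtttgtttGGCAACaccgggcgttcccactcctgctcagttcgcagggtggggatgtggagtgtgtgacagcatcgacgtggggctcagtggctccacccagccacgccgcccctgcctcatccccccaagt
Positions give the match's 5′ base relative to the gene's start. Both strands were searched for TGACGTCA (CRE), CACGTG (E-box), the full X-box (GTTGCC, 2 free bases, GG, 1 free base and AAC) and GTTGCC (an arm of the X-box) in windows of 300 bases, 250 before and 50 after the start, which 13096 of the tested genes had. Matches of different motifs could overlap and were each counted. The CRE letters stood in 2.97% of all these windows and in 4 of 34 (11.8%) windows of genes that rose and were only on a gene family list, those of Hhip, Pcsk1, Sstr2 and Th. In all genes that rose they stood in 8 of 165 windows (4.85%), in the called ependyma genes in 2 of 38 (5.26%), in the named genes on no list in 2 of 48 (4.17%), and in the called habenula genes in 0 of 17. The GTTGCC arm stood in 13.1% of all windows, in 17 of 38 (44.7%) windows of the called ependyma genes, in 11 of 48 (22.9%) of the named genes that rose and were on no list, and in 0 of 17 of the called habenula genes. In the whole ependyma list, called or not, it stood in 44 of 94 windows (46.8%), so the arm did not mark the called members. The full X-box stood in 0.359% of all windows, in 2 of 38 (5.26%) of the called ependyma genes and in 0 of 48 of the named genes on no list. A match describes letters and is not evidence of binding.

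The 6 libraries held from 32307869 to 46189597 counts, and 0 symbols in the table had a zero in any library. Of 19 tested markers of the labelled nucleus, 17 were over 1 CPM (counts scaled to library size, here after TMM scaling) in all 6 libraries, with a summed level from 4233 to 4730 CPM in NS and from 3837 to 4468 CPM under stress. Of the 15 lists of regions and cell types, 5 had list means of log2 CPM that did not overlap between the groups, and all 5 were higher under stress. In replicates 1, 2 and 3 the mean of 31 habenula genes was 2.98, 2.95 and 3.51 in NS and 4.20, 5.39 and 4.80 under stress. For 112 genes of ependyma and motile cilia it was 2.10, 1.86 and 2.09 against 2.79, 3.23 and 2.79, and for 21 choroid plexus genes 1.40, 1.38 and 1.40 against 2.10, 2.29 and 1.85. The hippocampus list went from between 4.04 and 4.20 to between 4.40 and 4.77, and the striatum and septum list from between 2.87 and 2.96 to between 3.05 and 3.09. Summed levels in NS and under stress were 1683 to 1825 and 1890 to 2666 CPM for habenula, 912.9 to 932.9 and 1312 to 1717 CPM for ependyma, and 185 to 197 and 233 to 295 CPM for choroid plexus. In the other direction, the summed level of 26 genes of other thalamic nuclei was 4208 to 4749 CPM in NS and 4078 to 4139 CPM under stress, while their list means overlapped. Hypothalamus sums were 49.7 to 65.0 CPM in NS and 65.8 to 77.0 CPM under stress. Astrocyte, oligodendrocyte, microglia and endothelium means overlapped between the groups.

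Far more genes were higher than lower under stress at the adjusted threshold. Of the 18194 tested genes, 210 (1.15%) rose and 3 (0.0165%) fell at a Benjamini-Hochberg adjusted p under 0.05 in edgeR's quasi-likelihood test. The split was less uneven at an unadjusted p under 0.05, with 1106 genes (6.08%) higher and 614 (3.37%) lower, and by the ranges of the libraries, which did not overlap for 1339 genes (7.36%) higher and 1007 (5.53%) lower. The median log2 fold change of all tested genes was -0.017, with 54.5% below 0. Of the 213 called genes 20 were on the habenula list, 45 on the ependyma list and 5 on the choroid plexus list. The other 143 comprised 140 that rose and 3 that fell: 46 only on a gene family list, 64 named genes on no list, 26 unnamed gene models, and 7 on another region or cell type list.

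**Figure D1:**
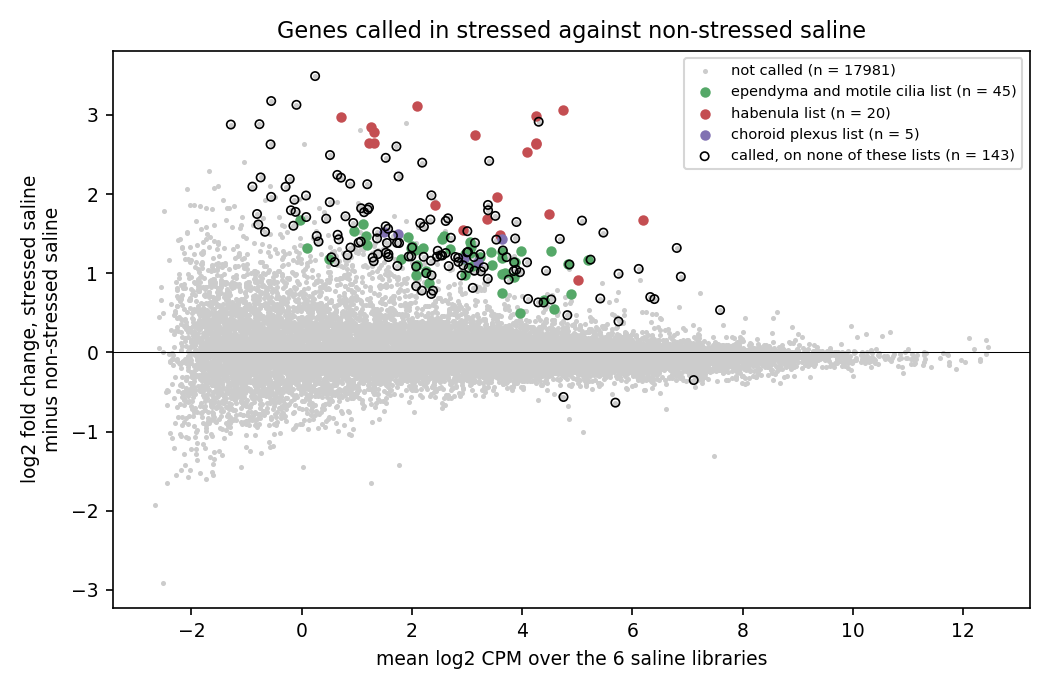
Log2 fold change of each tested gene (stressed saline minus non-stressed saline) against its mean log2 CPM over the 6 saline libraries. Open circles are the 143 called genes outside the habenula, ependyma and choroid plexus lists, of which 140 lie above 0 and 3 below.

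Most of the 140 rising genes outside the 3 lists shared their highest stressed library with the habenula list. Stressed replicate 2 was the highest stressed library for 119 of them (85%), against 32.9% of all tested genes, 20 of 20 called habenula genes and 44 of 45 called ependyma genes. The order replicate 1, 3, 2 from low to high held for 94 (67.1%) of the 140, against 13.5% of all tested genes. Among the NS libraries, replicate 3, with the highest habenula mean of that group (3.51), was highest for 83 of the 140 (59.3%, against 32.2%). The part of habenula and ventricle-lining RNA in these rises was not tested, and the list means separate the groups. After adjustment for the mean of the habenula list, edgeR called 0 genes, with 252 higher and 361 lower at an unadjusted p under 0.05, and 36 of the 213 took the opposite sign. Without stressed replicate 2 the rises outside the 3 lists numbered 21, without NS replicate 1 or 2 they numbered 26 and 44, and without stressed replicate 3 they numbered 90.

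**Figure D2:**
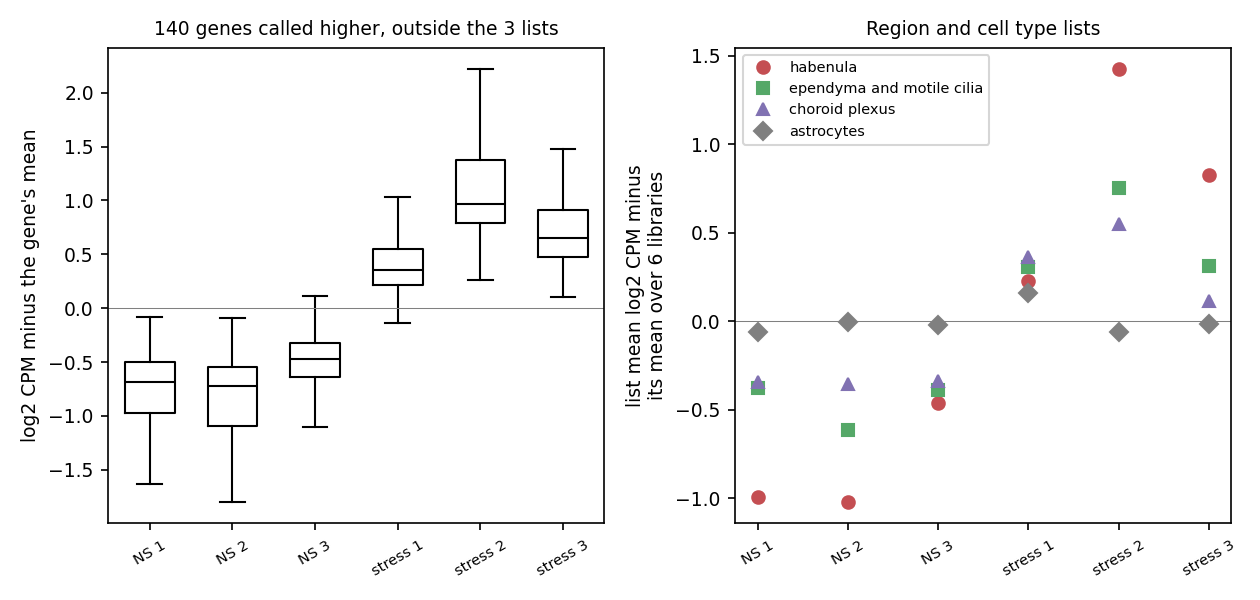
Left, log2 CPM minus each gene's mean over the 6 libraries, for the 140 rising genes outside the 3 lists (line, median; box, middle 50%; whiskers, furthest gene within 1.5 box lengths; genes beyond them are not drawn). Right, the mean log2 CPM of 4 lists per library, each minus its own mean; stressed replicate 2 is the highest library for both the 140 genes and the habenula list.

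The family counts below stand beside 1.15% of all tested genes higher and 0.0165% lower at the adjusted threshold. At an unadjusted p under 0.05, 6.08% of all tested genes were higher and 3.37% lower. Peptide genes were among the families with called members. Of 43 tested peptide precursors and processing enzymes, 5 rose (11.6%) and 0 fell, with a family median log2 fold change of 0.086. At an unadjusted p under 0.05, 9 of the 43 were higher and 5 lower. Of the 5 called higher, Tac1, Tac2 and Nppa are also on the habenula list, and Adcyap1 and Pcsk1 are not. Adcyap1, the precursor of PACAP, was at 11.6, 9.74 and 11.7 CPM in NS and 17.1, 26.2 and 23.5 CPM under stress. Every stressed library lay above every NS library, and the log2 fold change was 1.01 ± 0.16, standard error; adjusted p = 0.00970. The prohormone convertase Pcsk1, which cuts precursors into active peptides, was at 3.95, 5.20 and 3.90 CPM in NS and 8.34, 8.87 and 10.5 CPM under stress (1.09 ± 0.24, adjusted p = 0.0386). Its order differed from that of the habenula list, since stressed replicate 3 was the highest library. Spx, the precursor of spexin and on no list, was at 0.636, 0.564 and 1.03 CPM in NS and 2.36, 6.08 and 2.17 CPM under stress (2.24 ± 0.43, adjusted p = 0.0200), with stressed replicate 2 far above the others.

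Of 51 tested neuropeptide receptors, 2 rose (3.92%, against 1.15% of all tested genes) and 0 fell, and the family median was -0.031. Sstr2, a somatostatin receptor, was at 10.1, 6.17 and 9.69 CPM in NS and 18.3, 38.1 and 25.3 CPM under stress. Its groups were apart in every library, with a log2 fold change of 1.65 ± 0.24, adjusted p = 0.00788. Tacr1, the receptor of substance P, was at 1.23, 0.814 and 1.89 CPM in NS and 2.23, 7.60 and 4.28 CPM under stress (1.83 ± 0.39, adjusted p = 0.0377). The lowest stressed library of Tacr1 lay close above the highest NS library. Among 59 orphan Gpr receptors the 2 that rose, Gpr139 and Gpr151, are both on the habenula list. Of these peptide and receptor genes, Nppa, Sstr2, Gpr139 and Gpr151 passed whichever library was left out. Tac1, Tac2, Pcsk1, Spx and Tacr1 lost the call without NS replicate 1 (adjusted p from 0.0511 to 0.154), and Tac1, Tac2, Pcsk1, Spx and Tacr1 did so without NS replicate 2 (adjusted p from 0.0502 to 0.148). Pcsk1 lost the call without NS replicate 3 (adjusted p = 0.120), and Pcsk1 and Tacr1 did so without (2S,6S)-HNK replicate 3 (adjusted p from 0.0565 to 0.0651). Tac1, Tac2, Adcyap1, Pcsk1, Spx and Tacr1 lost the call without stressed replicate 2 (adjusted p from 0.0518 to 0.234), and Pcsk1 and Tacr1 did so without stressed replicate 3 (adjusted p from 0.0696 to 0.120). Tac2 had a log2 fold change of 3.94 without NS replicate 3 and 2.47 without stressed replicate 2. Spx had a log2 fold change of 1.60 without stressed replicate 2.

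Enzymes and transporters of small transmitters showed 3 rises among 27 tested genes (11.1%, against 1.15% of all tested genes), with a family median of 0.0081. Hdc, which makes histamine, is also on the hypothalamus list and was at 7.61, 7.33 and 9.18 CPM in NS and 16.8, 22.3 and 19.8 CPM under stress. Every stressed library lay well above every NS library, and the log2 fold change was 1.29 ± 0.19, adjusted p = 0.00788. Th, the rate-limiting enzyme of catecholamine synthesis, was at 0.943, 0.814 and 1.69 CPM in NS and 2.17, 7.09 and 5.94 CPM under stress (2.13 ± 0.47, adjusted p = 0.0412). Stressed replicate 1 lay nearer to the NS libraries than to the other stressed ones. Slc5a7, the choline transporter of cholinergic terminals, is on the habenula list and rose by 1.87 ± 0.36. Among these, Hdc passed whichever library was left out. Th and Slc5a7 lost the call without NS replicate 1 (adjusted p from 0.107 to 0.166), and Th and Slc5a7 did so without NS replicate 2 (adjusted p from 0.0954 to 0.154). Th lost the call without (2S,6S)-HNK replicate 3 (adjusted p = 0.0711), and Th and Slc5a7 did so without stressed replicate 2 (adjusted p from 0.0770 to 0.227). Th lost the call without stressed replicate 3 (adjusted p = 0.110). Slc5a7 had a log2 fold change of 1.21 without stressed replicate 2.

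Genes of cyclic nucleotide and calcium signalling also held rises. Of 37 cyclases and phosphodiesterases, 3 rose (8.11%, against 1.15% of all tested genes) and 0 fell, although the family median was -0.091. At an unadjusted p under 0.05, 4 of the 37 were higher and 3 lower. Pde2a, a phosphodiesterase stimulated by cyclic GMP, was at 47.4, 40.3 and 60.01 CPM in NS and 72.3, 141 and 93.6 CPM under stress (1.06 ± 0.20, adjusted p = 0.0181). Pde1a, which calmodulin activates, was at 9.41, 10.8 and 9.54 CPM in NS and 16.3, 30.6 and 18.5 CPM under stress (1.14 ± 0.20, adjusted p = 0.0117). Gucy1a1, a subunit of the nitric oxide receptor guanylyl cyclase, was at 21.7, 19.7 and 19.3 CPM in NS and 30.6, 64.8 and 35.8 CPM under stress (1.11 ± 0.21, adjusted p = 0.0169). In each of the 3 genes stressed replicate 2 stood well above the other libraries. Of 37 kinases of the C, A, G and CaM families only Prkcq rose, from between 16.5 and 25.4 CPM to between 35.8 and 100.2 CPM (1.67 ± 0.28, adjusted p = 0.00999). The family median was -0.12, and 8 members were lower against 2 higher at an unadjusted p under 0.05 (3.37% and 6.08% of all tested genes). Ppp1r1b, the phosphatase inhibitor DARPP-32 of neurons with dopamine input, is on the striatum list and was at 22.2, 22.7 and 31.99 CPM in NS and 41.8, 73.3 and 58.5 CPM under stress (1.17 ± 0.19, adjusted p = 0.00970). Tesc, a calcium-binding protein, rose by 0.99 ± 0.18, and the G protein subunit Gng8, also on the habenula list, by 1.97 ± 0.24, 1 of 25 subunits to pass. Across these genes, Gng8 passed whichever library was left out. Pde2a, Pde1a, Gucy1a1, Prkcq, Ppp1r1b and Tesc lost the call without NS replicate 1 (adjusted p from 0.0621 to 0.0850), and Pde2a, Gucy1a1, Prkcq, Ppp1r1b and Tesc did so without NS replicate 2 (adjusted p from 0.0573 to 0.0970). Gucy1a1 lost the call without NS replicate 3 (adjusted p = 0.0550), and Pde2a, Ppp1r1b and Tesc did so without stressed replicate 2 (adjusted p from 0.0518 to 0.0743).

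**Figure D3:**
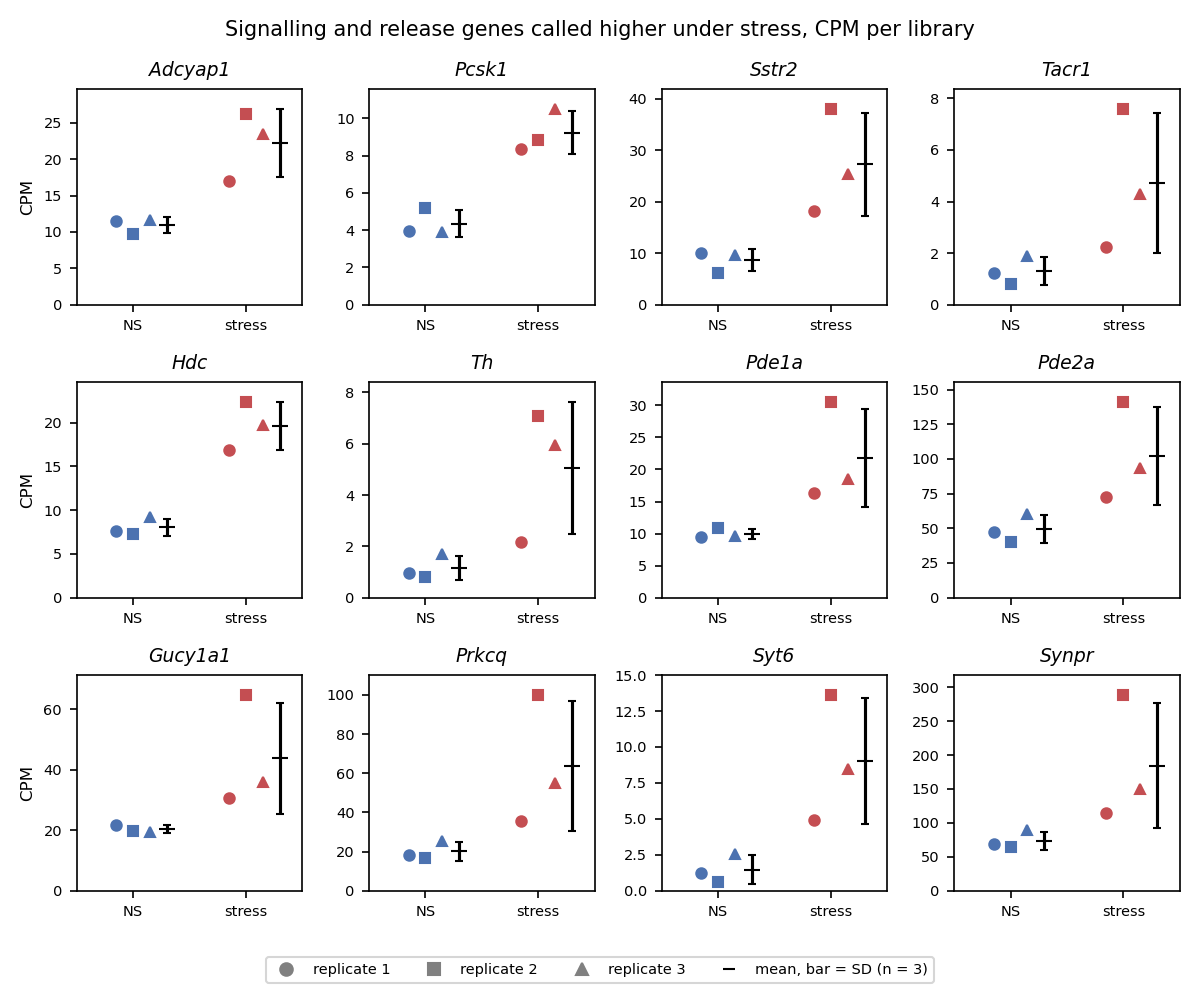
CPM in each of the 6 libraries for 12 genes of signalling and release that rose under stress; points are libraries, and the bar is the mean with its SD (n = 3). In 11 of the 12 panels stressed replicate 2 is the highest library, and in Pcsk1 stressed replicate 3 is.

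Vesicle and release genes rose in a few members. Of 40 synaptotagmins and related C2 proteins, calcium sensors of vesicle fusion, 3 rose (7.5%) and 0 fell around a median of -0.0055. At an unadjusted p under 0.05, 7 of the 40 were higher and 4 lower. Syt6 was at 1.21, 0.626 and 2.55 CPM in NS and 4.90, 13.6 and 8.47 CPM under stress (2.60 ± 0.42, adjusted p = 0.00970). Sytl1 was at 0.811, 1.19 and 3.21 CPM in NS and 4.48, 12.3 and 7.63 CPM under stress (2.22 ± 0.46, adjusted p = 0.0321). Both were lowest in NS replicates 1 and 2 and highest in stressed replicate 2, and Syt15, the other called member, is on the habenula list. Of 91 genes of the release machinery, Synpr and Unc13d rose (2.20%, against 1.15% of all tested genes) and 0 fell. At an unadjusted p under 0.05, 6 of the 91 were higher and 9 lower. Synpr, a synaptic vesicle membrane protein, was at 68.5, 64.1 and 89.1 CPM in NS and 115, 289 and 149 CPM under stress (1.32 ± 0.26, adjusted p = 0.0207). Unc13d, which primes granules for release, rose by 1.40 ± 0.29 from a mean of 0.734 ± 0.0898 CPM (SD, n = 3). Among 36 calcium-binding proteins, Necab3 rose by 0.96 ± 0.21 and Calml4, also on the choroid plexus list, by 1.19 ± 0.18. Sncg, the gamma-synuclein gene and on no list, rose by 1.80 ± 0.30 from 5.82 ± 1.54 CPM to 20.1 ± 8.06 CPM. On the receiving side, 0 of 55 postsynaptic scaffold genes passed, with 6 lower and 1 higher at an unadjusted p under 0.05, a median of -0.12 and 0 called by DESeq2 or limma voom. Across all tested genes, 3.37% were lower and 6.08% higher at that unadjusted threshold. The scaffold list mean was 4.747 to 4.794 in NS and 4.564 to 4.699 under stress. In the other direction, that of synaptotagmins was 4.136 to 4.337 and 4.433 to 4.592, and that of calcium-binding proteins 6.431 to 6.518 and 6.528 to 6.691. Of the genes in this paragraph, Calml4 passed whichever library was left out. Syt6, Sytl1, Synpr, Unc13d, Necab3 and Sncg lost the call without NS replicate 1 (adjusted p from 0.0615 to 0.153), and Sytl1, Synpr, Unc13d and Necab3 did so without NS replicate 2 (adjusted p from 0.112 to 0.149). Unc13d lost the call without NS replicate 3 (adjusted p = 0.0933), and Sytl1 and Necab3 did so without (2S,6S)-HNK replicate 3 (adjusted p from 0.0577 to 0.0666). Unc13d lost the call without stressed replicate 1 (adjusted p = 0.0516), and Syt6, Sytl1, Synpr, Unc13d, Necab3 and Sncg did so without stressed replicate 2 (adjusted p from 0.0518 to 0.193). Sytl1 and Necab3 lost the call without stressed replicate 3 (adjusted p from 0.0654 to 0.0817). Syt6 had a log2 fold change of 3.26 without NS replicate 3. Sytl1 had a log2 fold change of 3.04 without NS replicate 3.

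Homeobox genes gave the most calls among the transcription factor families. Of 63 tested, Hopx, Irx2, Irx3, Msx1 and Pou4f1 rose (7.94%, against 1.15% of all tested genes), 0 fell, and the median was 0.035. At an unadjusted p under 0.05, 13 of the 63 were higher and 7 lower, against 6.08% and 3.37% of all tested genes. Irx2 and Pou4f1 are also on the habenula list and Msx1 on the choroid plexus list. Hopx, an atypical homeodomain protein that does not bind DNA, was at 63.6, 70.2 and 67.8 CPM in NS and 83.3, 124 and 115 CPM under stress (0.67 ± 0.13, adjusted p = 0.0179). Irx3, a patterning factor of the Iroquois group, was at 5.42 ± 2.02 CPM in NS and 13.1 ± 5.18 CPM under stress (1.27 ± 0.27, adjusted p = 0.0380). The NS and stressed ranges of Irx3 were close, with NS replicate 3 at 7.63 and stressed replicate 1 at 9.23 CPM. Of 70 basic helix-loop-helix genes, Ascl4 rose by 2.88 ± 0.48 and Neurod1, also on the hippocampus list, by 1.20 ± 0.25. Ascl4 stayed at or below 1.93 CPM in every library. Of 39 nuclear receptors Nr4a2, also on the habenula list, was the only gene called. Of 377 Zfp genes, listed by symbol stem and not by function, 1 (0.265%), Zfp185, rose (1.71 ± 0.32). By edgeR 0 of 43 forkhead and Sox genes and 0 of 45 Ets, Klf, Egr and C/EBP genes passed (0 and 3 at an unadjusted p under 0.05, and 0 and 1 higher and 0 lower by DESeq2). Hopx, Irx2, Irx3, Msx1, Pou4f1, Nr4a2, Neurod1 and Zfp185 lost the call without NS replicate 1 (adjusted p from 0.0517 to 0.153), and Hopx, Irx2, Irx3, Msx1, Pou4f1, Ascl4, Neurod1 and Zfp185 did so without NS replicate 2 (adjusted p from 0.0562 to 0.146). Neurod1 and Zfp185 lost the call without NS replicate 3 (adjusted p from 0.0526 to 0.0646), and Irx3 and Neurod1 did so without (2S,6S)-HNK replicate 3 (adjusted p from 0.0516 to 0.0639). Hopx, Irx3, Msx1, Pou4f1, Ascl4, Neurod1 and Zfp185 lost the call without stressed replicate 2 (adjusted p from 0.0531 to 0.232), and Hopx, Irx3 and Neurod1 did so without stressed replicate 3 (adjusted p from 0.0557 to 0.0654). Pou4f1 had a log2 fold change of 3.71 without NS replicate 3 and 2.02 without stressed replicate 2. Nr4a2 had a log2 fold change of 1.95 without stressed replicate 2. Without NS replicate 1, 0 of the 5 homeobox calls were left.

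Secreted signals of development and their receptors were next. Of 52 Wnt pathway genes, Fzd7, Ror2, Rspo4 and Wif1 rose (7.69%, against 1.15% of all tested genes) and 0 fell. Rspo4 and Wif1 are also on the habenula list. Fzd7, a Wnt receptor, was at 1.89, 1.75 and 1.28 CPM in NS and 4.12, 5.40 and 5.35 CPM under stress (1.59 ± 0.35, adjusted p = 0.0412). Ror2, a receptor kinase that binds Wnt ligands, was at 0.351, 0.188 and 0.245 CPM in NS and 1.23, 2.83 and 0.901 CPM under stress (2.63 ± 0.59, adjusted p = 0.0475), near the lower end of the tested range. Of 13 hedgehog genes only Hhip, a decoy receptor of hedgehog ligands, was called, and it was at 5.79, 6.58 and 6.50 CPM in NS and 11.2, 21.95 and 11.3 CPM under stress (1.24 ± 0.23, adjusted p = 0.0150). The groups of Hhip stood apart, with stressed replicate 2 the highest. Scube1 and Scube3, secreted proteins on no list, rose by 2.42 ± 0.44 and 1.56 ± 0.24. Of 37 neurotrophic genes Gfra1, a receptor for GDNF, rose by 1.43 ± 0.27 from 16.3 ± 2.64 CPM to 44.2 ± 22.3 CPM. Of 29 FGF, 23 Notch and 17 IGF genes 0 passed by edgeR (0, 0 and 2 at an unadjusted p under 0.05, and 0, 0 and 0 by DESeq2). Of this group, Scube3 passed whichever library was left out. Fzd7, Ror2, Hhip, Scube1 and Gfra1 lost the call without NS replicate 1 (adjusted p from 0.0669 to 0.119), and Fzd7, Ror2, Hhip, Scube1 and Gfra1 did so without NS replicate 2 (adjusted p from 0.0646 to 0.154). Fzd7 and Ror2 lost the call without NS replicate 3 (adjusted p from 0.130 to 0.136), and Fzd7 and Ror2 did so without (2S,6S)-HNK replicate 3 (adjusted p from 0.0501 to 0.0512). Fzd7, Ror2, Hhip, Scube1 and Gfra1 lost the call without stressed replicate 2 (adjusted p from 0.0518 to 0.288), and Fzd7 did so without stressed replicate 3 (adjusted p = 0.108). Ror2 had a log2 fold change of 2.00 without stressed replicate 2. Scube1 had a log2 fold change of 3.14 without NS replicate 3.

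Guidance and matrix genes rose singly. Slit2, a repellent of growing axons, was at 2.52, 2.72 and 2.33 CPM in NS and 4.05, 7.11 and 6.39 CPM under stress (1.21 ± 0.22, adjusted p = 0.0140), and with Rtn4rl2 it made 2 of 36 guidance genes. DESeq2 and limma voom did not call Rtn4rl2 (adjusted p = 0.0660 and 0.116). Of the 102 genes named in the text, edgeR called 91. DESeq2 did not call 1 of these 91, and limma voom did not call 42 of them. Nrp2, a semaphorin receptor, was at 7.80, 6.67 and 6.89 CPM in NS and 13.03, 22.3 and 22.2 CPM under stress (1.43 ± 0.26, adjusted p = 0.0145), 1 of 37 genes in its family. Of 56 proteoglycans and matrix glycoproteins, Reln, Fbln7 and Prelp rose (5.36%, against 1.15% of all tested genes). Reln, which guides neuronal layering, was at 1.67, 0.783 and 1.20 CPM in NS and 3.71, 4.90 and 4.34 CPM under stress (1.81 ± 0.33, adjusted p = 0.0140). Fbln7 was at 5.00, 5.29 and 3.95 CPM in NS and 11.3, 17.1 and 12.8 CPM under stress (1.53 ± 0.25, adjusted p = 0.00970). Prelp was at 12.2, 9.65 and 9.22 CPM in NS and 18.5, 25.00 and 20.7 CPM under stress (1.04 ± 0.19, adjusted p = 0.0140). All 3 matrix genes were lower in every NS library than in any stressed one. Cnmd, the chondromodulin gene and on no list, was at 2.94, 4.20 and 3.19 CPM in NS and 9.55, 11.6 and 11.3 CPM under stress (1.66 ± 0.21, adjusted p = 0.00464), with little spread among its stressed libraries. Cdh26 was the only one of 30 cadherins called (1.63 ± 0.33), and 0 of 31 collagens passed by edgeR (3 at an unadjusted p under 0.05, 1 higher and 0 lower by DESeq2). Among the guidance and matrix genes, Cnmd passed whichever library was left out. Slit2, Rtn4rl2, Nrp2 and Cdh26 lost the call without NS replicate 1 (adjusted p from 0.0621 to 0.166), and Slit2, Rtn4rl2, Nrp2, Reln, Prelp and Cdh26 did so without NS replicate 2 (adjusted p from 0.0562 to 0.153). Slit2, Prelp and Cdh26 lost the call without NS replicate 3 (adjusted p from 0.0512 to 0.0568), and Rtn4rl2 did so without (2S,6S)-HNK replicate 2 (adjusted p = 0.0520). Rtn4rl2 lost the call without (2S,6S)-HNK replicate 3 (adjusted p = 0.0690), and Slit2, Rtn4rl2, Nrp2, Reln, Fbln7, Prelp and Cdh26 did so without stressed replicate 2 (adjusted p from 0.0518 to 0.266). Slit2, Rtn4rl2 and Nrp2 lost the call without stressed replicate 3 (adjusted p from 0.0519 to 0.0828). Rtn4rl2 had a log2 fold change of 3.57 without NS replicate 3 and 1.87 without stressed replicate 2.

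Calls among ion channels, fast receptors and transporters stand beside the 1.15% of all tested genes that rose. Of 82 potassium channel genes 2 (2.44%), Kcng4, also on the habenula list, and Kcnmb1, an accessory subunit of calcium-activated channels, rose, Kcnmb1 by 1.15 ± 0.23. At an unadjusted p under 0.05, 11 of the 82 were higher and 12 lower, and the median was -0.047. Across all tested genes, 6.08% were higher and 3.37% lower at that threshold. Of 24 calcium channel genes 0 passed by edgeR, with 4 higher and 8 lower at an unadjusted p under 0.05 and 1 higher and 0 lower by DESeq2. Their median of -0.18 was the lowest of the families with at least 15 tested members, against -0.017 for all genes. The list of other thalamic nuclei, a region list, had a median of -0.20, with 4 higher and 9 lower of 26 at an unadjusted p under 0.05, and its part in the families' medians was not tested. Cacnb3, the member with the smallest p, was higher, at 109, 100.1 and 142 CPM in NS and 141, 255 and 196 CPM under stress (0.75 ± 0.17, adjusted p = 0.0538). The medians were -0.11 for 19 GABA-A and glycine receptor genes and -0.10 for 20 ionotropic glutamate receptor genes, and 0 passed in either by edgeR (0 higher and 3 lower, and 0 higher and 5 lower, at an unadjusted p under 0.05; 0 and 0 by DESeq2). The GABA-A and glycine receptor list mean was 4.855 to 4.876 in NS and 4.606 to 4.849 under stress. For ionotropic glutamate receptors it was 4.787 to 4.892 and 4.701 to 4.777. For calcium channels it was 3.988 to 4.039 and 3.875 to 3.982. For potassium channels, in the other direction, it was 3.362 to 3.459 and 3.462 to 3.504. The ranges did not overlap in these families. Of 290 solute carriers, which move ions and metabolites across membranes, 6 rose (2.07%) and 0 fell. The zinc transporter Slc39a4 was at 1.45, 1.75 and 2.48 CPM in NS and 5.07, 6.43 and 4.28 CPM under stress (1.48 ± 0.23, adjusted p = 0.00970). The glutamine transporter Slc38a8 was at 0.855, 0.689 and 0.736 CPM in NS and 2.17, 5.40 and 3.04 CPM under stress (2.21 ± 0.32, adjusted p = 0.00716). Neither gene overlapped between the groups, and both levels were low. Of these, Slc38a8 passed whichever library was left out. Kcnmb1 and Slc39a4 lost the call without NS replicate 1 (adjusted p from 0.0517 to 0.0812), and Kcnmb1 did so without NS replicate 2 (adjusted p = 0.0886). Kcnmb1 lost the call without NS replicate 3 (adjusted p = 0.0818), and Kcnmb1 and Slc39a4 did so without stressed replicate 2 (adjusted p from 0.0518 to 0.157). Kcnmb1 lost the call without stressed replicate 3 (adjusted p = 0.0654).

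Immune and filament genes rose in single members. The microglia list mean lay from 3.68 to 3.84 in NS and from 3.63 to 3.71 under stress, and 0 of its 24 genes passed by edgeR (0 at an unadjusted p under 0.05, 0 by DESeq2). C4b, a complement component, was at 2.54, 2.88 and 3.68 CPM in NS and 7.51, 6.30 and 7.24 CPM under stress (1.21 ± 0.22, adjusted p = 0.0161). Plat, the tissue plasminogen activator, was at 46.4, 50.3 and 44.1 CPM in NS and 62.3, 64.7 and 57.6 CPM under stress (0.39 ± 0.09, adjusted p = 0.0402), and these 2 were the calls among 28 complement and coagulation genes. In C4b stressed replicate 2 was the lowest stressed library, unlike in most rises. Cxcl11, a ligand of the receptor CXCR3, was the only call among 92 chemokines, interleukins and TNF genes (1.09%, against 1.15% of all tested genes). It was at 0.285, 0.251 and 0.515 CPM in NS and 2.00, 6.19 and 3.83 CPM under stress (3.49 ± 0.42, adjusted p = 0.00300). Its level was low in every library. Of 81 genes listed by symbol stem as toll-like, Fc and other immune receptors, 3 rose (3.70%, against 1.15% of all tested genes). Cd24a, Clec18a and Clec3b rose by 1.21 ± 0.20, 2.40 ± 0.44 and 1.20 ± 0.26. A shared stem does not make these 3 genes immune receptors. Among 30 intermediate filaments, Gfap of astrocytes and Krt8, an epithelial keratin, rose. Krt8 was at 1.03, 1.32 and 1.47 CPM in NS and 3.25, 2.87 and 3.97 CPM under stress (1.40 ± 0.27, adjusted p = 0.0182). The astrocyte list mean overlapped between the groups, and 20 of its 30 genes lay below 0 (median -0.062). On that list 2 genes were called higher (6.67%), Gfap being 1 of them. At an unadjusted p under 0.05, 5 of its genes were higher and 1 lower. Of 27 genes of antigen presentation 0 passed by edgeR, with 6 higher and 1 lower at an unadjusted p under 0.05, 2 higher and 0 lower by DESeq2, and a median of 0.18, the highest of the families with at least 15 members. Their median was -0.01 with the habenula covariate. H2-D1 was at 64.3, 81.4 and 68.01 CPM in NS and 89.7, 87.9 and 102 CPM under stress (0.39 ± 0.10, adjusted p = 0.0879). Among the immune and filament genes, Cxcl11 passed whichever library was left out. C4b, Plat, Cd24a, Clec18a, Clec3b, Gfap and Krt8 lost the call without NS replicate 1 (adjusted p from 0.0595 to 0.166), and C4b, Plat, Cd24a, Clec18a, Clec3b, Gfap and Krt8 did so without NS replicate 2 (adjusted p from 0.0560 to 0.120). Plat and Clec3b lost the call without NS replicate 3 (adjusted p from 0.0545 to 0.133), and Plat and Clec3b did so without (2S,6S)-HNK replicate 2 (adjusted p from 0.0538 to 0.0685). Plat and Clec3b lost the call without (2S,6S)-HNK replicate 3 (adjusted p from 0.0538 to 0.0582), and Plat and Clec3b did so without stressed replicate 1 (adjusted p from 0.0610 to 0.0906). C4b, Plat, Cd24a, Clec18a, Clec3b, Gfap and Krt8 lost the call without stressed replicate 2 (adjusted p from 0.0518 to 0.252), and C4b and Krt8 did so without stressed replicate 3 (adjusted p from 0.0519 to 0.0690). Clec18a had a log2 fold change of 3.02 without NS replicate 3 and 1.77 without stressed replicate 2.

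Several rises outside the ependyma list are in genes best known from sperm tails or cilia, and the groups of the ependyma list mean were also apart (2.10, 1.86 and 2.09 in NS against 2.79, 3.23 and 2.79). The ependyma list, Spag8, Tcp11, Ppp1r42, Tex15, Dnah3 and Dnaic2 were highest among the stressed libraries in replicate 2, and Dnajb13 in replicate 3. The genes were picked after their values were seen, except Dnajb13, Ppp1r42 and Tex15. Dnajb13, an axonemal co-chaperone, was the only call among 89 heat shock and co-chaperone genes (1.12%, against 1.15% of all tested genes). It was at 1.93, 1.82 and 1.59 CPM in NS and 4.01, 4.90 and 5.04 CPM under stress (1.38 ± 0.19, adjusted p = 0.00561). Spag8 was at 6.88, 7.24 and 5.96 CPM in NS and 12.2, 16.4 and 12.2 CPM under stress (1.03 ± 0.16, adjusted p = 0.00845). Tcp11 was at 1.75, 2.13 and 2.23 CPM in NS and 4.73, 6.49 and 4.70 CPM under stress (1.38 ± 0.21, adjusted p = 0.00819). The windows of Spag8 and Tcp11 are among the 11 of 48 with the GTTGCC arm. Ppp1r42 rose by 1.97 ± 0.30, the meiosis gene Tex15 by 3.13 ± 0.41, and the axonemal dynein genes Dnah3 and Dnaic2 by 1.23 ± 0.25 and 1.23 ± 0.26. The part of ependymal RNA in these rises was not tested. Of these genes, Dnajb13, Spag8, Tcp11, Ppp1r42 and Tex15 passed whichever library was left out. Dnah3 and Dnaic2 lost the call without NS replicate 1 (adjusted p from 0.0772 to 0.153), and Dnah3 and Dnaic2 did so without NS replicate 2 (adjusted p from 0.0926 to 0.107). Dnah3 lost the call without NS replicate 3 (adjusted p = 0.0864), and Dnaic2 did so without (2S,6S)-HNK replicate 3 (adjusted p = 0.0555). Dnaic2 lost the call without stressed replicate 1 (adjusted p = 0.0641), and Dnah3 and Dnaic2 did so without stressed replicate 2 (adjusted p from 0.176 to 0.179). Dnaic2 lost the call without stressed replicate 3 (adjusted p = 0.0653).

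The 3 genes that fell included a pair of phosphatases. Dusp1, which dephosphorylates MAP kinases and is induced by activity and glucocorticoids, was at 70.5, 59.4 and 63.6 CPM in NS and 41.6, 46.3 and 36.7 CPM under stress. It fell by 0.63 ± 0.14 on the log2 scale (adjusted p = 0.0425), and the highest stressed library lay under the lowest NS library. Ptpn3, a tyrosine phosphatase, was at 32.2, 33.04 and 33.1 CPM in NS and 22.5, 18.1 and 26.04 CPM under stress and fell by 0.56 ± 0.12 (adjusted p = 0.0349). The NS libraries of Ptpn3 lay close together, and the stressed ones all lay under them. Dusp1 was the only call among 21 dual-specificity phosphatases and Ptpn3 the only one among 33 tyrosine phosphatases. Dusp1 and Ptpn3 lost the call without NS replicate 1 (adjusted p from 0.0950 to 0.164), and Dusp1 and Ptpn3 did so without NS replicate 2 (adjusted p from 0.0803 to 0.105). Dusp1 and Ptpn3 lost the call without NS replicate 3 (adjusted p from 0.0818 to 0.0842), and Dusp1 and Ptpn3 did so without (2S,6S)-HNK replicate 2 (adjusted p from 0.0502 to 0.0517). Ptpn3 lost the call without (2S,6S)-HNK replicate 3 (adjusted p = 0.0509), and Dusp1 and Ptpn3 did so without stressed replicate 1 (adjusted p from 0.0661 to 0.0861). Dusp1 and Ptpn3 lost the call without stressed replicate 2 (adjusted p from 0.0837 to 0.172), and Dusp1 did so without stressed replicate 3 (adjusted p = 0.151). DESeq2 called 34 genes lower, against 3 by edgeR, and limma voom 1.

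The activity and glucocorticoid lists that hold Dusp1 had no further calls. Of 40 immediate early genes 1 fell and 0 rose, with 8 lower and 2 higher at an unadjusted p under 0.05 and a median of -0.094. Across all tested genes, 3.37% were lower and 6.08% higher at that unadjusted threshold. Of 23 glucocorticoid response genes 1 fell, again Dusp1, with 4 lower and 2 higher at an unadjusted p under 0.05. Sgk1, a kinase induced by glucocorticoids, was at 79.4, 94.2 and 83.95 CPM in NS and 70.01, 68.9 and 63.4 CPM under stress (-0.35 ± 0.09, adjusted p = 0.0706 by edgeR and 0.0128 by DESeq2). Its groups did not overlap. Of 21 circadian clock genes 20 had a log2 fold change below 0, against 54.5% of all genes, and the median was -0.15. The list mean overlapped between the groups, at 5.551 to 5.700 in NS and 5.445 to 5.553 under stress. By edgeR 0 of the 21 passed, with 7 lower and 0 higher at an unadjusted p under 0.05 (3.37% and 6.08% of all tested genes). DESeq2 called 2 lower, Hlf and Npas2. Hlf, a factor of the clock output, was at 75.02, 74.6 and 81.1 CPM in NS and 65.2, 55.5 and 62.2 CPM under stress (-0.34 ± 0.09, adjusted p = 0.0826 by edgeR). Npas2, a partner of the core clock, was at 17.1, 14.8 and 17.6 CPM in NS and 13.3, 12.1 and 10.3 CPM under stress (-0.47 ± 0.12, adjusted p = 0.0941 by edgeR). In both genes every stressed library lay under every NS library. Ciart and Dbp gave -0.29 ± 0.09 and -0.31 ± 0.13, and Rora, which is also on the list of other thalamic nuclei (median -0.20, with 9 of 26 lower at an unadjusted p under 0.05), -0.29 ± 0.09. E-box letters, through which clock factors act, stood in 5 of 18 clock gene windows (27.8%), those of Bhlhe41, Ciart, Cry1, Per1 and Tef, against 9.62% of all windows. The share was 19.4% (6 of 31) in immediate early genes, 17.6% (3 of 17) in called habenula genes and 8.48% (14 of 165) in all genes that rose. Among the clock genes lower at an unadjusted p under 0.05, only Ciart had these letters in its window. The labels give no time of day of collection.

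**Figure D4:**
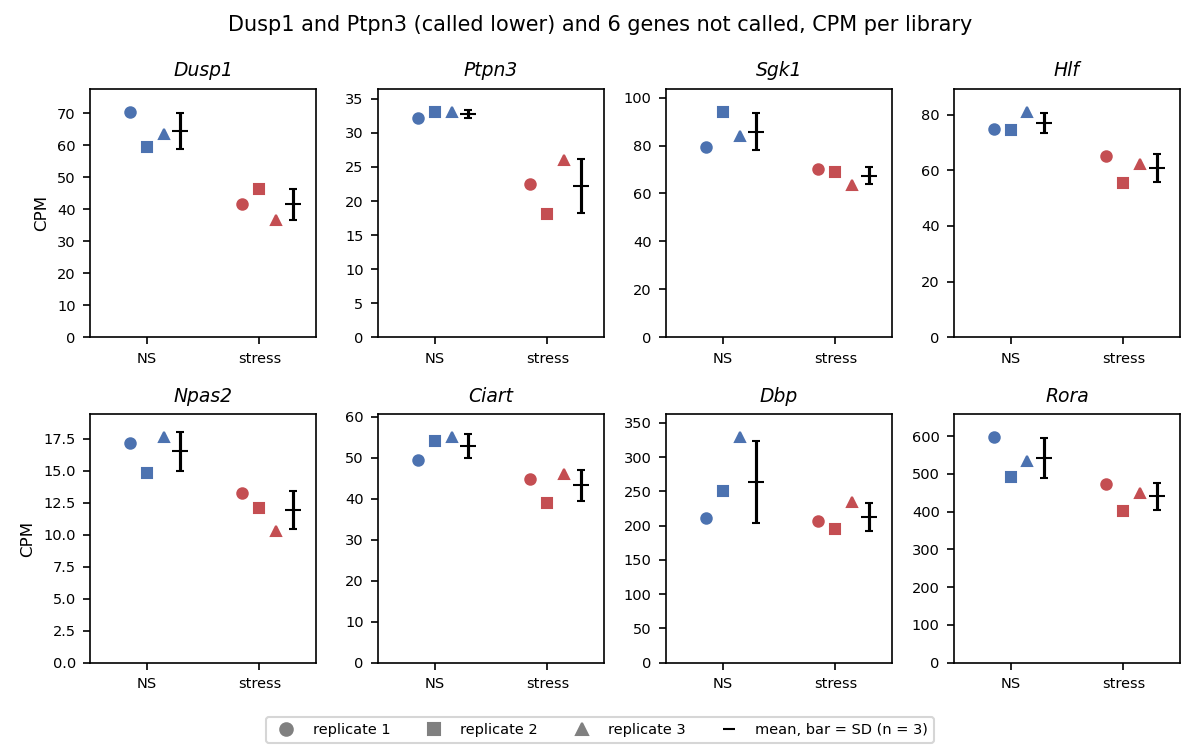
CPM in each of the 6 libraries for Dusp1 and Ptpn3, which fell, and for 6 genes that did not pass; points are libraries, and the bar is the mean with its SD (n = 3). The groups do not overlap for Dusp1, Ptpn3, Sgk1, Hlf, Npas2, Ciart and Rora, and overlap for Dbp.

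Ribosomal protein, oxidative phosphorylation and translation factor genes had narrow distributions around the median of all genes. The median was 0.0074 for 86 cytosolic ribosomal proteins, -0.021 for 82 mitochondrial ribosomal proteins, -0.016 for 94 nuclear genes of oxidative phosphorylation and -0.032 for 71 translation factors. By edgeR 0 genes of these 4 families passed, with 0 higher and 3 lower at an unadjusted p under 0.05 and 0 by DESeq2. Of 24 cholesterol synthesis genes 22 lay below 0, and of 19 glycolysis genes 18 did, against 54.5% of all tested genes. Their medians were -0.043 and -0.080, with 0 calls by edgeR (0 and 1 at an unadjusted p under 0.05, 0 and 0 by DESeq2). The glycolysis list mean did not overlap between the groups, at 8.506 to 8.606 in NS and 8.443 to 8.460 under stress. The cholesterol synthesis list mean overlapped.

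**Figure D5:**
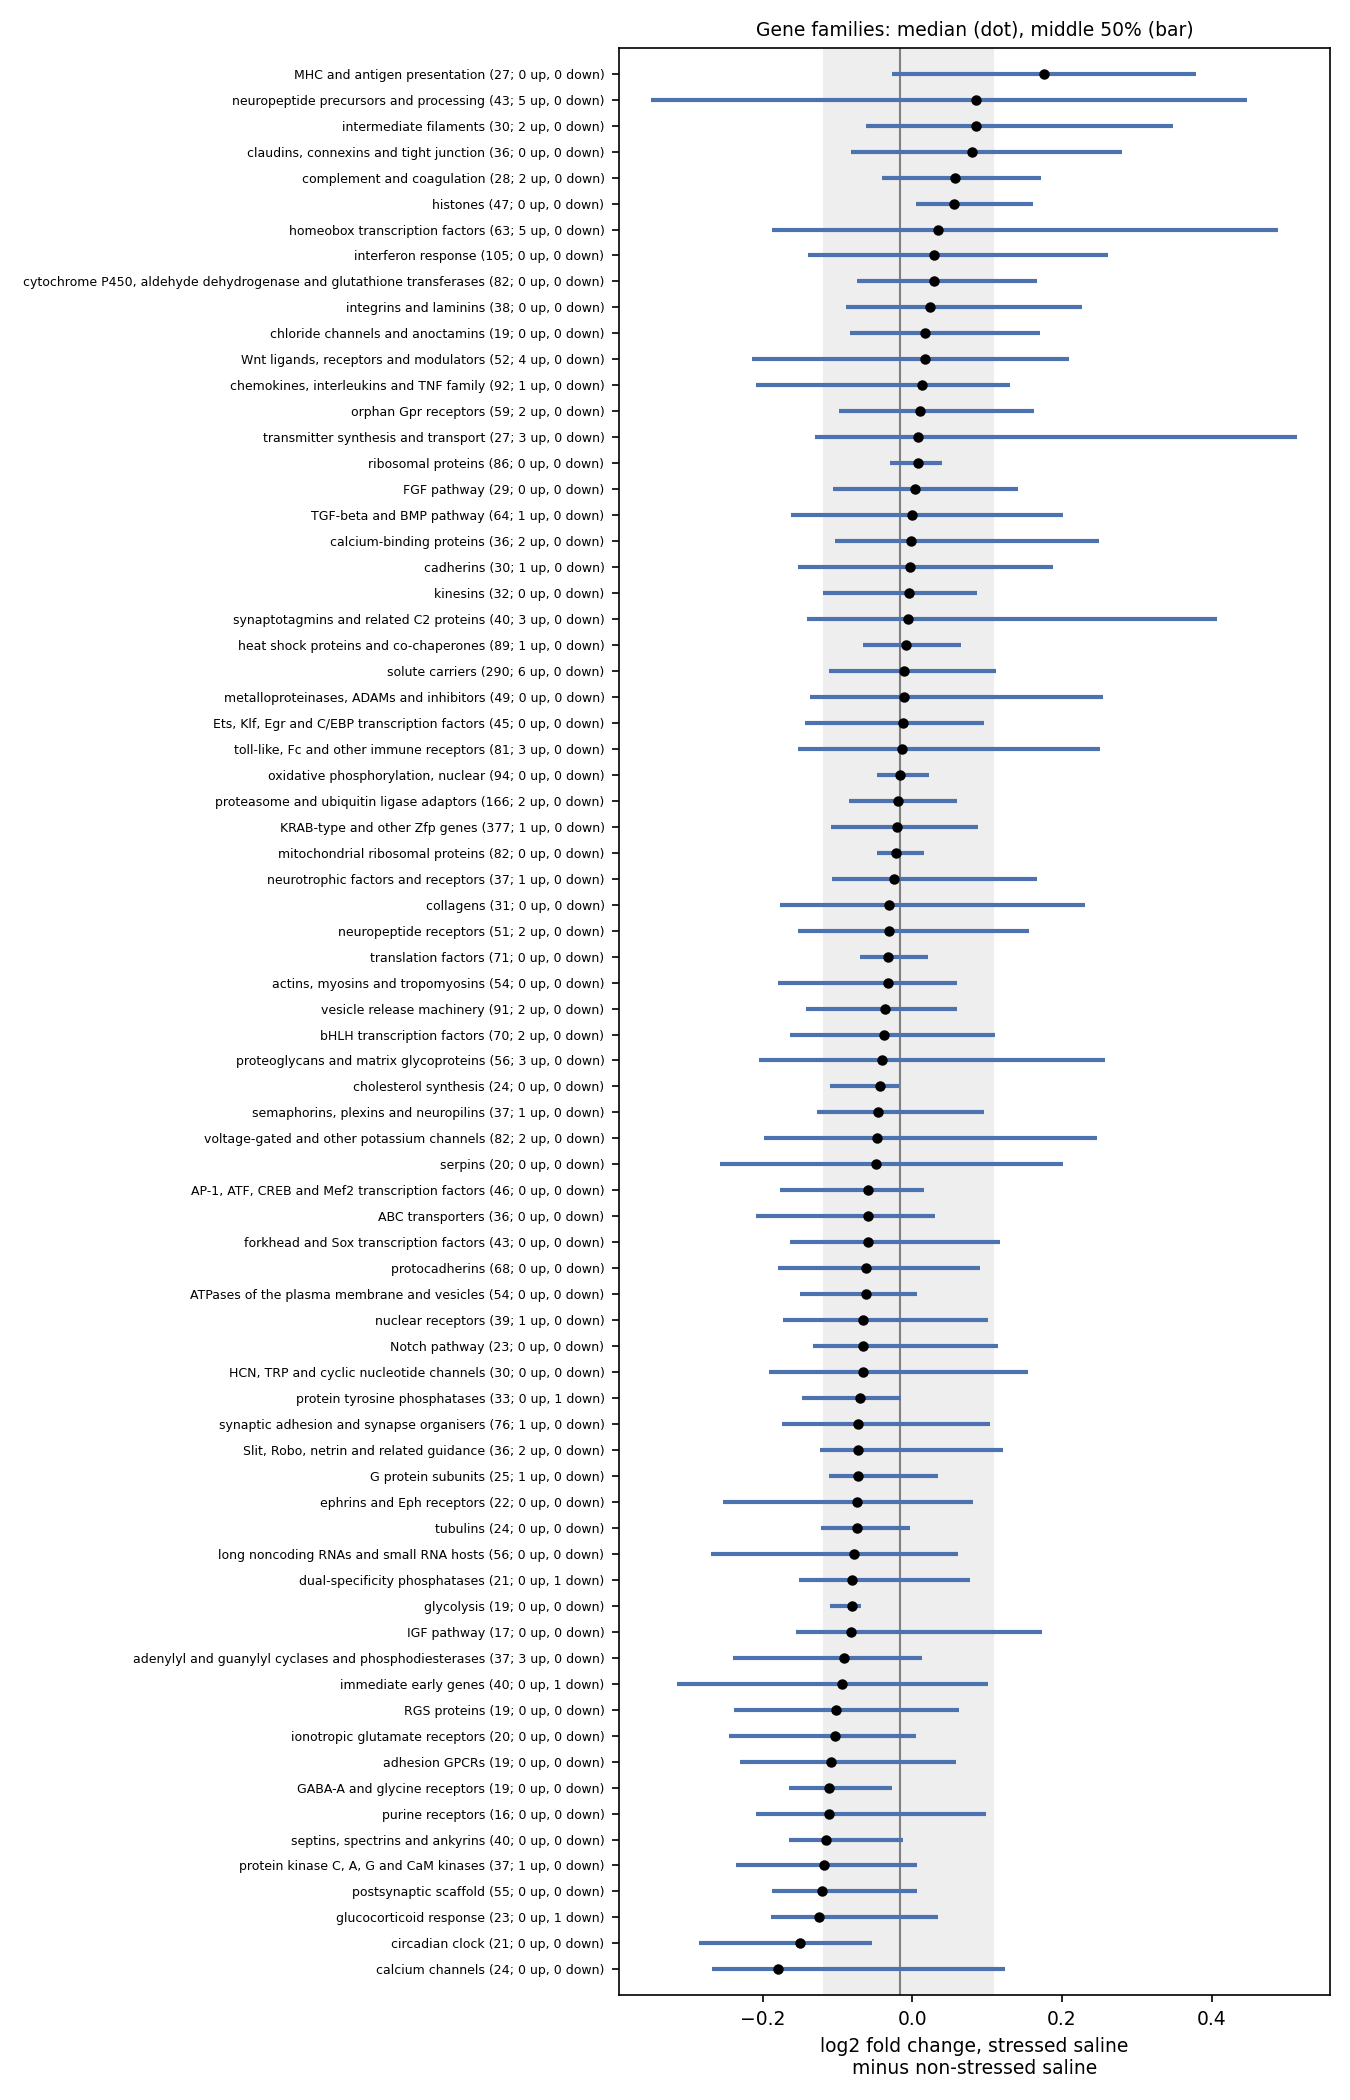
Median log2 fold change (dot) and middle 50% (bar) of the gene families with at least 15 tested genes, 1 of them not drawn; the number tested and the calls up and down stand in parentheses. The grey line and band are the median and middle 50% of all tested genes, and antigen presentation (0.18) and calcium channels (-0.18) mark the ends.

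Outside the habenula, ependyma and choroid plexus lists, 15 rises stayed called whichever of the 9 libraries was removed, of 30 such genes in all. Named above are Cnmd, Cxcl11, Dnajb13, Hdc, Ppp1r42, Scube3, Slc38a8, Spag8, Sstr2, Tcp11 and Tex15. Ccdc3 is the remaining named gene, at 3.44, 3.51 and 4.91 CPM in NS and 9.09, 12.1 and 11.3 CPM under stress (1.45 ± 0.22, adjusted p = 0.00788). Its groups were well apart, and the other 3 are unnamed gene models. Other large rises among named genes on no region list were those of Tspan18 (1.86 ± 0.33), Pld5 (1.99 ± 0.43), Uox (1.82 ± 0.30) and Crygn (1.77 ± 0.34). Tspan18, Pld5, Uox and Crygn lost the call without NS replicate 1 (adjusted p from 0.0611 to 0.152), and Tspan18, Pld5, Uox and Crygn did so without NS replicate 2 (adjusted p from 0.0504 to 0.147). Pld5 lost the call without (2S,6S)-HNK replicate 3 (adjusted p = 0.0606), and Tspan18, Pld5, Uox and Crygn did so without stressed replicate 2 (adjusted p from 0.0517 to 0.227). Pld5 and Crygn lost the call without stressed replicate 3 (adjusted p from 0.0583 to 0.0684). Further called family members were Lrrc46 (1 of 76 genes of synaptic adhesion, by symbol stem), Chrna3 (1 of 7 nicotinic receptors), Htr5b (1 of 10 serotonin receptors) and Sostdc1 (1 of 64 genes of the TGF-beta and BMP pathway). Also called were Klhl1 and Psmc3ip, 2 of 166 genes (1.20%, against 1.15% of all tested genes) listed by symbol stem as proteasome and ubiquitin ligase adaptors. A shared stem does not place Psmc3ip among them by function. Klhl1, Chrna3 and Htr5b are also on the habenula list and Sostdc1 on the choroid plexus list. Of these further members, Klhl1 passed whichever library was left out, but limma voom did not call it (adjusted p = 0.0540). Lrrc46, Psmc3ip, Chrna3, Htr5b and Sostdc1 lost the call without NS replicate 1 (adjusted p from 0.0611 to 0.153), and Lrrc46, Psmc3ip, Chrna3 and Sostdc1 did so without NS replicate 2 (adjusted p from 0.0646 to 0.148). Lrrc46, Psmc3ip and Sostdc1 lost the call without NS replicate 3 (adjusted p from 0.0534 to 0.107), and Psmc3ip and Sostdc1 did so without (2S,6S)-HNK replicate 3 (adjusted p from 0.0606 to 0.0637). Lrrc46, Psmc3ip, Chrna3, Htr5b and Sostdc1 lost the call without stressed replicate 2 (adjusted p from 0.0518 to 0.210), and Lrrc46, Psmc3ip and Sostdc1 did so without stressed replicate 3 (adjusted p from 0.0583 to 0.130). Chrna3 had a log2 fold change of 3.33 without NS replicate 3 and 2.00 without stressed replicate 2. Htr5b had a log2 fold change of 3.88 without NS replicate 3.

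The (2S,6S)-HNK libraries give a level for the same genes, though they share the stressed condition and were not tested here. The median level of the 140 rises was 3.02 CPM in NS, 7.85 CPM under stress with saline and 2.78 CPM under stress with (2S,6S)-HNK. The 140 genes were chosen for being high in the stressed saline libraries, so a lower level in another group is in large part set by that choice, and nothing is read from it. For Dusp1 the 3 group means were 64.5, 41.6 and 67.96 CPM.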

How the data were processed

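Bulk RNA-seq of 9 libraries was used, 3 per group, with groups taken from the labels. Libraries were made from 100 ng of total RNA, and TruSeq and the SMARTer Ultra low RNA Kit are named for their construction, per the labels' protocols. Each value in the table that the authors deposited is a whole-number read count for 1 gene symbol in 1 library, without normalization. Trimmomatic 0.38, HISAT2, StringTie and the GRCm38/mm10 build are named, per the submitters' processing notes. Their settings are not stated there, nor is the strandedness. Reads of overlapping or antisense genes and of near-identical copies may therefore be mixed.

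Genes were kept with filterByExpr (minimum count 10, minimum total 15), TMM-scaled, then fitted with 1 mean per group by quasi-likelihood (edgeR 4.0.16, R 4.3.3). The model leaves the (2S,6S)-HNK libraries in to share the estimate of spread. P-values were adjusted by Benjamini-Hochberg across 18194 genes, with calls at an adjusted p under 0.05. Standard errors are the log2 fold change divided by the square root of the F statistic. Log2 CPM used a prior count of 2. Totals of 32307869 to 51569143 counts per library mean that the spread between libraries sets the precision of all but the lowest levels. Of 18956 symbols, 18333 matched RefSeq (GRCm38.p6). The fit was tested on simulated data, in 5 runs each with 2 ways of drawing the spread between libraries. With trended dispersions the share of false calls was near the nominal threshold, and with gene-wise dispersions it was above it, so the adjusted p may be somewhat too small. The trended runs were added after the gene-wise result was seen.

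Alternatives were DESeq2 1.42.0, limma 3.58.1 voom with sample quality weights, 2 other scalings, 2 other filters, the 6 libraries alone, a replicate block, list means as covariates, 2 other thresholds and leaving out each library. The same alternatives for the count outside the 3 lists were added after the data were seen. Same-numbered NS and stressed libraries had correlations of deviations of 0.106, -0.100 and 0.0776, so the numbers were not taken as pairs.

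The 99 gene lists (15 of regions and cell types, 84 of families, mostly by symbol stem) and the comparison were chosen with earlier results of these data known. Named genes were all that fell, the 12 largest rises of named genes (mean log2 CPM 1 or more) with groups that do not overlap and no region or cell type list, up to 3 called members per family by smallest p, the member with the smallest p of a described family without a call, and up to 12 rises outside the habenula, ependyma and choroid plexus lists that stayed called whichever library was removed, by smallest p. Named outside this rule, after their values were seen or to complete a count, were the genes of the closing observations and Tac1, Pcsk1, Spx, Ror2, Irx3, Scube3, Spag8, Tcp11, Dnah3, Dnaic2, Ppp1r1b, Tesc, Pou4f1, Sgk1, Npas2, Ciart, Dbp and Rora. Part of what the rule names is not reported here.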

Additional observations from a re-analysis of the deposited data

How the results depend on the processing

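Against 210 genes higher and 3 lower, DESeq2 called 439 and 34, limma voom 101 and 1, an adjusted p under 0.1 gave 349 and 21, and an unadjusted p under 0.05 with a 1.5-fold change gave 754 and 135. The 6 libraries alone gave 206 and 1. Other scalings (RLE, upper quartile), filters (none, 1 CPM in at least 3 libraries) and the oligodendrocyte mean as a covariate gave 185 to 259 higher and 3 or 4 lower. Leaving out 1 library gave 40 to 289 higher (50 without NS replicate 1, 70 without NS replicate 2, 40 without stressed replicate 2) and 0 to 17 lower (17 without stressed replicate 1), with the spread estimated over all remaining libraries. With the replicate number as a replicate block the counts were 176 and 1. Same-numbered libraries did not deviate together in every pair, so that value is not a paired test.

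With the habenula mean, or the habenula and ependyma means, as covariates, edgeR called 0 genes higher and 0 lower (252 and 361, and 263 and 363, at an unadjusted p under 0.05). The list means separate the groups, and the cause was not tested. Of 102 genes named in the text, 27 changed sign with the habenula mean, to these log2 fold changes: Cacnb3 (-0.49), Cdh26 (-0.042), Chrna3 (-0.37), Clec18a (-0.36), Gfra1 (-0.45), Gucy1a1 (-0.12), Irx2 (-0.17), Irx3 (-0.40), Necab3 (-0.51), Neurod1 (-0.34), Nr4a2 (-0.24), Pde2a (-0.36), Pld5 (-0.68), Pou4f1 (-1.01), Ppp1r1b (-0.12), Prkcq (-0.39), Rtn4rl2 (-0.95), Scube1 (-0.51), Slc5a7 (-0.50), Sostdc1 (-0.54), Synpr (-0.41), Sytl1 (-0.44), Tac2 (-0.23), Tacr1 (-0.77), Tesc (-0.12), Th (-0.64), Tspan18 (-0.51). With both means 29 changed sign: Cacnb3 (-0.48), Cdh26 (-0.53), Chrna3 (-0.36), Clec18a (-0.12), Gfra1 (-0.61), Gucy1a1 (-0.26), Hhip (-0.025), Irx2 (-0.18), Irx3 (-0.47), Necab3 (-0.41), Neurod1 (-0.12), Nr4a2 (-0.44), Pde1a (-0.022), Pde2a (-0.44), Pld5 (-0.84), Pou4f1 (-0.93), Ppp1r1b (-0.16), Prkcq (-0.44), Ror2 (-0.74), Rtn4rl2 (-0.65), Scube1 (-0.18), Slc5a7 (-0.30), Sostdc1 (-0.56), Synpr (-0.41), Sytl1 (-0.48), Tacr1 (-0.84), Tesc (-0.063), Th (-0.88), Tspan18 (-0.51). In the other fits that kept all 3 libraries of each saline group, 0 of the 102 changed sign.

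With 3 libraries per group, a difference that missed the threshold is not shown to be absent. Below about 1 CPM, levels rest on few counts.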

Other observations

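Among the 140 rises outside the habenula, ependyma and choroid plexus lists, 21 did not have their highest stressed level in replicate 2, the library with the highest habenula mean. Rarres2, which encodes the secreted attractant chemerin, was at 13.4, 16.6 and 15.5 CPM in NS and 25.3, 31.6 and 36.2 CPM under stress (1.03 ± 0.18, adjusted p = 0.0115), with replicate 3 the highest. Mia, a secreted protein, was at 4.12, 5.64 and 5.81 CPM in NS and 9.79, 13.8 and 13.8 CPM under stress (1.26 ± 0.21, adjusted p = 0.00970). Sptlc3, a subunit of the enzyme that starts sphingolipid synthesis, was at 0.395, 0.564 and 0.564 CPM in NS and 2.31, 1.73 and 1.94 CPM under stress (1.98 ± 0.34, adjusted p = 0.0105), with replicate 1 the highest. Others were Hhatl (0.67 ± 0.11), Anxa4 (0.78 ± 0.16) and Phkg1 (0.78 ± 0.16). The groups of these 6 genes, which were picked after their values were seen, did not overlap. Rarres2, Mia, Sptlc3, Hhatl, Anxa4 and Phkg1 lost the call without NS replicate 1 (adjusted p from 0.0602 to 0.102), and Sptlc3, Anxa4 and Phkg1 did so without NS replicate 2 (adjusted p from 0.0502 to 0.122). Anxa4 and Phkg1 lost the call without NS replicate 3 (adjusted p from 0.0728 to 0.107), and Anxa4 and Phkg1 did so without (2S,6S)-HNK replicate 2 (adjusted p from 0.0502 to 0.0517). Anxa4 and Phkg1 lost the call without (2S,6S)-HNK replicate 3 (adjusted p from 0.0501 to 0.0531), and Rarres2, Mia, Anxa4 and Phkg1 did so without stressed replicate 2 (adjusted p from 0.0518 to 0.142). Anxa4 and Phkg1 lost the call without stressed replicate 3 (adjusted p from 0.110 to 0.121).

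DESeq2 called 34 genes lower, and 3 of them were also called by edgeR. Neuronal genes among the other 31, again picked after their values were seen, included Adcy1, a calmodulin-stimulated adenylyl cyclase (71.5, 63.2 and 76.1 CPM in NS and 56.9, 42.5 and 53.9 CPM under stress; DESeq2 adjusted p = 0.00870). Kcnc2, a potassium channel of fast-firing neurons, was at 85.4, 77.9 and 80.7 CPM in NS and 67.1, 57.3 and 66.1 CPM under stress (DESeq2 adjusted p = 0.00906). Chrna4, a nicotinic receptor subunit, was at 76.1, 76.1 and 81.97 CPM in NS and 64.00, 56.8 and 67.7 CPM under stress (DESeq2 adjusted p = 0.0352). In edgeR's test the adjusted p of these 3 genes was 0.0672, 0.0627 and 0.112 in the same order.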
